A study of Mus musculus with 6 samples.

Results

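The Purkinje cell genes described here are *Calb1*, *Pvalb*, *Car8*, *Pcp2*, *Pcp4*, *Itpr1*, *Rora* and *Foxp2*, 8 markers of cerebellar Purkinje cells read in cells sorted for a Nestin reporter. Each matched 1 row by symbol, 8 of the 19630 genes in the deposited table, and all 8 passed the filter on low values. They were measured by RNA-seq in Nes-CFP-positive cells, cells carrying a cyan fluorescent reporter of *Nes*, the gene of the neural progenitor filament protein Nestin. Mice were of the Swiss webster strain with the genotype Nes-CFP/+, and their cerebella were dissociated with papain and sorted at postnatal day 5. The irradiated group, 3 libraries, came from mice irradiated at postnatal day 1, and the control group, 3 libraries, from mice that were not. All 6 libraries share strain, genotype, age and sort. The labels give neither the radiation dose nor the number of animals behind a library. They do not say whether libraries of 1 group came from separate mice, so each p-value reflects the spread among these 6 libraries alone. Part of that spread may be technical, and how much was not tested. Mean log2 levels of Y-linked genes, described below, ran from 9.87 to 10.87 among irradiated and from 8.39 to 10.18 among control libraries.

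Purkinje cells are the large GABAergic output neurons of the cerebellar cortex. They are born before birth and build their dendrites after it. They are known for strong calcium signalling, in which glutamate receptors drive release of calcium from internal stores and abundant binding proteins buffer it. They also secrete Sonic hedgehog, the mitogen of granule cell progenitors. Several of the 8 genes are known in other cerebellar cells too, such as *Rora* and *Pvalb* in molecular layer interneurons and *Itpr1* in many cell types. In bulk RNA, fewer cells of a type and less RNA per cell cannot be told apart.

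No Purkinje cell gene passed the test for a change after irradiation, and the 8 did not all differ in 1 direction. *Calb1*, *Pvalb* and *Car8* had the larger level in the irradiated library of each of the 3 same-numbered pairs. *Rora* had the smaller level in all 3. Of all genes tested, 15.4% were higher and 14.4% lower in every pair, so 1 of 8 lower is near that share. *Pcp2*, *Pcp4*, *Itpr1* and *Foxp2* differed in sign between pairs. Levels are read counts that the authors scaled between libraries, with mean ± SD and n = 3 per group. A positive log2 fold change means a higher level in irradiated libraries. It was fitted by limma over 16674 genes to log2(scaled count + 1), and is given with its standard error (SE).

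Of the 8 genes, the RefSeq table on GRCm38.p6 had windows for *Pvalb*, *Pcp2*, *Pcp4* and *Rora*. The 250 bases before the start site are printed for *Pcp2* and *Pcp4*, which hold the letters AGGTCA, and for *Pvalb*, the member whose groups did not overlap. AGGTCA is the core that RORA, the product of *Rora*, is known to bind together with an A/T-rich flank, and *Pcp2*, *Pcp4* and *Itpr1* are known in mouse cerebellum to depend on *Rora*. Capitals mark AGGTCA or its reverse complement TGACCT. The windows lie at chr8:3625548-3625797 on the minus strand for *Pcp2*, at chr16:96467356-96467605 on the plus strand for *Pcp4* and at chr15:78206401-78206650 on the minus strand for *Pvalb*, each printed 5′ to 3′ along its gene.
Pcp2: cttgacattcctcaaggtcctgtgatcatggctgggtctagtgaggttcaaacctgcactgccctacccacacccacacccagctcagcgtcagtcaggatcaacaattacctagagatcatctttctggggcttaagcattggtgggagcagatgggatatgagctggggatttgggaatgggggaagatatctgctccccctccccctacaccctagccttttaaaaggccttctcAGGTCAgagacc
Pcp4: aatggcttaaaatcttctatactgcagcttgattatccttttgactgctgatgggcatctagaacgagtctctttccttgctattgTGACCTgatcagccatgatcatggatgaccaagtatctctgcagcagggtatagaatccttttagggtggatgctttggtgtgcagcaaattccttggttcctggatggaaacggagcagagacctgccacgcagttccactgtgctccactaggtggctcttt
Pvalb: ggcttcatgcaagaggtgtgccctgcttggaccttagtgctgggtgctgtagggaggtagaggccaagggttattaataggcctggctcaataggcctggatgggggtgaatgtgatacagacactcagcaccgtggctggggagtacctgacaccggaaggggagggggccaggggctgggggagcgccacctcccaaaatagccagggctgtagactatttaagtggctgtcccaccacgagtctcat
In *Pcp2* the match began 12 bases before the start site on the gene's own strand, and in *Pcp4* 164 bases before it on the opposite strand. Neither match has an A/T-rich run directly 5′ of AGGTCA along its own strand, so neither shows the flank named above. AGGTCA was found on either strand in 2 of the 4 windows, against 14.0% of 32851 RefSeq windows of the same length. Among 18 windows of other Purkinje cell genes it was in 2. TATAAA, the letters of a TATA box, was in 0 of the 4, in 0 of the 18 and in 12.4% of all windows, either strand. The motifs do not overlap each other here, and a match describes letters, not a site in use.

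All 8 are protein-coding genes on 6 chromosomes, with *Calb1* and *Car8* both on chromosome 4 and *Itpr1* and *Foxp2* both on chromosome 6. In GRCm38 coordinates of GENCODE, *Calb1* spans chr4:15881264-15908064 and *Pvalb* chr15:78191114-78206400. *Car8* spans chr4:8143362-8239041, *Itpr1* chr6:108213096-108551109, *Rora* chr9:68653786-69388246 and *Foxp2* chr6:14901349-15441977. *Pcp2* spans chr8:3623371-3625545 and *Pcp4* chr16:96467606-96525793. *Pcp2* shares 941 of its 1828 exon bases with *Pet100* on the opposite strand, and *Pcp4* shares 243 of 1026 with *Igsf5* on its own strand. Whether counting used strand is not given in the sources used here, so the counts of *Pcp2* and *Pcp4* may hold reads of these neighbours.

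The libraries held between 30986269 and 37067530 reads assigned to genes. The *Cdkn1a* gene of the p53-induced cell cycle inhibitor p21 stood at 1470 to 1843 in irradiated libraries and at 235 to 402 in control libraries, lower in each control library than in any irradiated one. Of 16674 genes tested 9 were called at a limma adjusted p below 0.05, 7 higher and 2 lower, which is 0.0540%. With the replicate number as a block 25 were called, 0.150%. Irradiated replicate 3 stood apart from the other libraries, with *Ttr* at 2658, against 13.7 to 190.0 in the other 5, and *Xist* at 26.2, against 21073 to 85481.

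The 8 genes together took 0.0232% to 0.0292% of reads in the irradiated libraries and 0.0192% to 0.0269% in the controls. The exact Clopper-Pearson 95% intervals of the 6 shares had bounds between 0.0187% and 0.0298%, and cover counting error only. Per kilobase of exon, *Pvalb* was the highest of the 8 at 606 ± 37.99 in irradiated and 475 ± 50.9 in control libraries. That placed it at percentile 78.6 of the 16623 tested genes with a length. *Pcp4* followed at 326 ± 81.6 in irradiated and 295 ± 74.7 in control libraries, then *Car8* at 315 ± 73.3 in irradiated and 231 ± 27.6 in control libraries. *Itpr1* was at 195 ± 4.29 per kilobase in irradiated and 205 ± 45.8 in control libraries, and *Calb1* at 166 ± 41.7 in irradiated and 102 ± 28.3 in control libraries. The lowest 3 were *Rora* at percentile 35.5, *Pcp2* at 33.5 and *Foxp2* at 20.1. Over the 6 libraries, the range of *Pvalb* did not touch that of *Pcp4*, and the range of *Foxp2*, 19.9 to 36.3, lay below that of *Pcp2*, 37.9 to 124. Every other pair of neighbours in this order overlapped. By comparison the astroglial glutamate transporter gene *Slc1a3* stood at percentile 99.9, at 23330.5 ± 5790.4 per kilobase in irradiated and 25675 ± 3903 in control libraries.

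**Figure D1:**
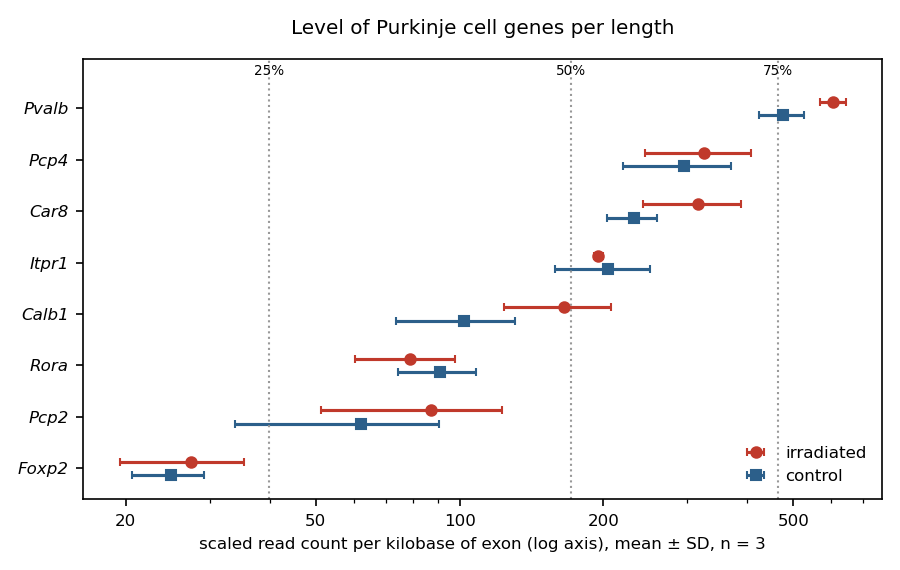
Scaled read count per kilobase of merged exons (log axis) for the 8 Purkinje cell genes, mean with SD bars of 3 irradiated (circles, upper) and 3 control (squares, lower) libraries. Dotted lines mark the 25%, 50% and 75% points of all tested genes with a length; *Pvalb* lies near the 75% line and *Foxp2* is the gene below the 25% line in both groups.

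The first 2 genes encode calcium buffers. *Calb1* encodes calbindin, which binds calcium through EF-hands and is the standard stain for Purkinje cells. It had 897, 571 and 940.4 scaled counts in irradiated replicates 1, 2 and 3, against 351, 507 and 625 in control replicates 1, 2 and 3. Irradiated replicate 2 lay below control replicate 3, so the groups overlapped, while each irradiated library exceeded the control of its number. The mean was 803 ± 202 in irradiated and 494 ± 137 in control libraries, a log2 fold change of 0.70 (SE 0.25) or 1.63-fold with a 95% limma interval of 1.11 to 2.40. It did not pass over all genes, with a limma adjusted p of 0.903, and 0.406 with the block.

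*Pvalb* encodes parvalbumin, a buffer of fast calcium transients. It had 659, 585 and 647 scaled counts in irradiated libraries, against 555, 459 and 469 in control libraries. This was the one gene of the 8 whose groups did not overlap, where 8.83% of tested genes had no overlap in either direction and 4.83% with irradiated higher. The mean was 630.4 ± 39.5 in irradiated and 494 ± 52.99 in control libraries, a log2 fold change of 0.35 (SE 0.14). Its exact two-sided permutation p was 0.1, the smallest that 3 libraries against 3 allow, and its limma adjusted p was 0.9999.

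**Figure D2:**
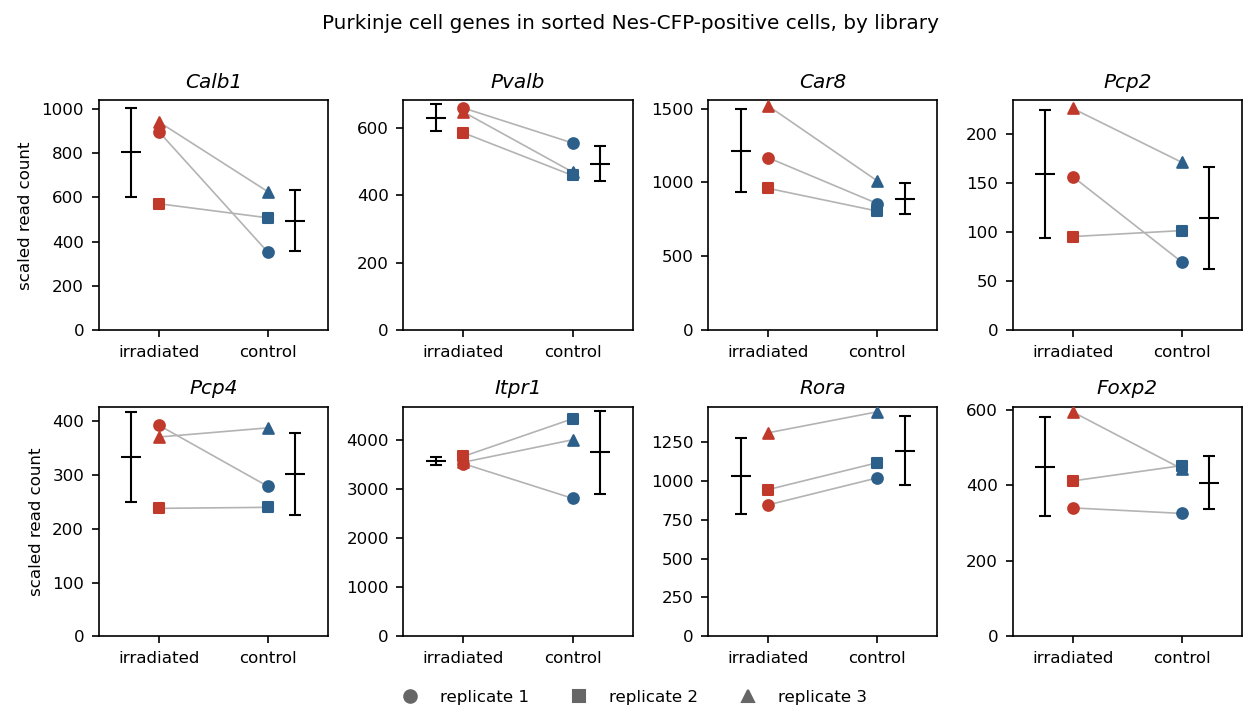
Scaled read counts of the 8 Purkinje cell genes, irradiated libraries at left and control libraries at right in each panel; grey lines join libraries of the same replicate number and black bars show mean and SD of 3. The 3 irradiated *Pvalb* values, 585 to 659, lie above the 3 control values, 459 to 555; in the other 7 panels the groups overlap.

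The next pair act on release of calcium from the endoplasmic reticulum. *Itpr1* encodes the inositol trisphosphate receptor through which Purkinje cells release stored calcium. It had 3516, 3665 and 3546 scaled counts in irradiated libraries, against 2811, 4431 and 4003 in control libraries. The irradiated libraries lay inside the range of the controls, with means of 3576 ± 78.6 in irradiated and 3748 ± 839.5 in control libraries. Its log2 fold change was -0.04 (SE 0.16), with a 95% limma interval of -0.40 to 0.31.

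*Car8* encodes a carbonic anhydrase-related protein that lacks enzyme activity and binds this receptor, lowering its affinity for inositol trisphosphate. It had 1168, 960.2 and 1519 scaled counts in irradiated libraries, against 857, 806 and 1010.3 in control libraries. Only irradiated replicate 2 fell within the control range, and each irradiated library exceeded the control of its number. The log2 fold change was 0.43 (SE 0.18), and the limma adjusted p was 0.9999, or 0.277 with the block. Without irradiated replicate 3 the log2 fold change of *Car8* was 0.26, while that of *Itpr1* was -0.04.

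*Pcp2* and *Pcp4* encode small signalling modulators. *Pcp2*, also called L7, encodes a regulator of G protein signalling that is nearly restricted to Purkinje cells and retinal bipolar cells. It had 156, 95.3 and 226 scaled counts in irradiated libraries, against 69.2, 101 and 171 in control libraries, the fewest reads of the 8 genes. The groups overlapped widely, and in the second pair the irradiated library was the lower one. The log2 fold change was 0.49 (SE 0.38), with a limma adjusted p of 0.9999, and it was 0.20 without irradiated replicate 3 and 0.19 without control replicate 1.

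*Pcp4* encodes PEP-19, which speeds exchange of calcium on calmodulin. It had 393, 238 and 371 scaled counts in irradiated libraries, against 279, 240.1 and 388 in control libraries. Replicate 2 was the lowest library of either group. Its log2 fold change was 0.14 (SE 0.24), with a 95% limma interval of -0.41 to 0.69.

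The last 2 genes encode transcription factors. *Rora*, mutated in the staggerer mouse, encodes an orphan nuclear receptor needed for Purkinje cell maturation. It had 844, 943 and 1307 scaled counts in irradiated libraries, against 1018, 1115 and 1442 in control libraries. Each irradiated library lay below the control of its number, by 0.27, 0.24 and 0.14 on the log2 scale, while the groups as a whole overlapped. The log2 fold change was -0.22 (SE 0.19), with a limma adjusted p of 0.9999, or 0.583 with the block. It was -0.40 without irradiated replicate 3, -0.09 without irradiated replicate 1 and -0.07 without control replicate 3.

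*Foxp2* encodes a forkhead factor of postmitotic Purkinje cells. It had 339.8, 411 and 594 scaled counts in irradiated libraries, against 325, 452 and 443 in control libraries. Irradiated replicate 3 was the highest library and control replicate 1 the lowest. The log2 fold change was 0.12 (SE 0.23), and -0.11 without irradiated replicate 3.

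Across the 8 genes 0 passed limma or limma with the block over all genes tested, where 0.0540% and 0.150% of genes did. At an unadjusted p below 0.05, 3 of the 8 passed limma, all with a positive fold change, against 4.50% of all genes, 2.42% positive and 2.08% negative. With the block 4 passed, *Calb1*, *Pvalb* and *Car8* positive and *Rora* negative, against 8.29% of all genes, 4.05% positive and 4.24% negative. The limma count of 3 was 0 without irradiated replicate 1, and 1 without irradiated replicate 3, control replicate 1 or control replicate 2. Without irradiated replicate 3 the 1 gene was *Rora*, with a negative fold change and not among the 3. The count was 2 with the Y-linked covariate described below, *Pvalb* positive and *Rora* negative. Fitted levels were higher in irradiated libraries for 6 of the 8, against 49.4% of all genes. In the same-numbered pairs 3 of the 8 were higher in all 3 and 1 was lower in all 3, beside the 15.4% and 14.4% of all genes. The median log2 fold change was 0.25, against -0.0028 over all genes tested, and ran from 0.12 without irradiated replicate 3 to 0.39 without irradiated replicate 2. The genes were chosen as a set with earlier results known, so these shares are a description.

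The libraries of the 8 genes did not rank alike. Irradiated replicate 3 was highest for *Calb1*, *Car8*, *Pcp2* and *Foxp2*, irradiated replicate 1 for *Pvalb* and *Pcp4*, control replicate 3 for *Rora* and control replicate 2 for *Itpr1*. Control replicate 1 was lowest for *Calb1*, *Pcp2*, *Itpr1* and *Foxp2*. The Y-linked genes *Ddx3y*, *Eif2s3y*, *Kdm5d* and *Uty* had a mean log2 level of 9.87, 10.21 and 10.87 in irradiated libraries 1 to 3 and of 8.39, 9.09 and 10.18 in control libraries 1 to 3. That level too was higher in the irradiated library of every pair and lowest in control replicate 1. With it as a covariate, the log2 fold change was 0.28 for *Calb1*, 0.18 for *Car8*, 0.45 for *Pvalb* and -0.63 for *Rora*, and that of *Pcp2* turned to -0.29, with the lowest limma adjusted p at 0.247 for *Rora*. In that fit 3 of the 8 were higher and 5 lower in irradiated libraries, and their median turned to -0.19. How far the sex of the animals takes part was not tested beyond this fit.

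**Figure D3:**
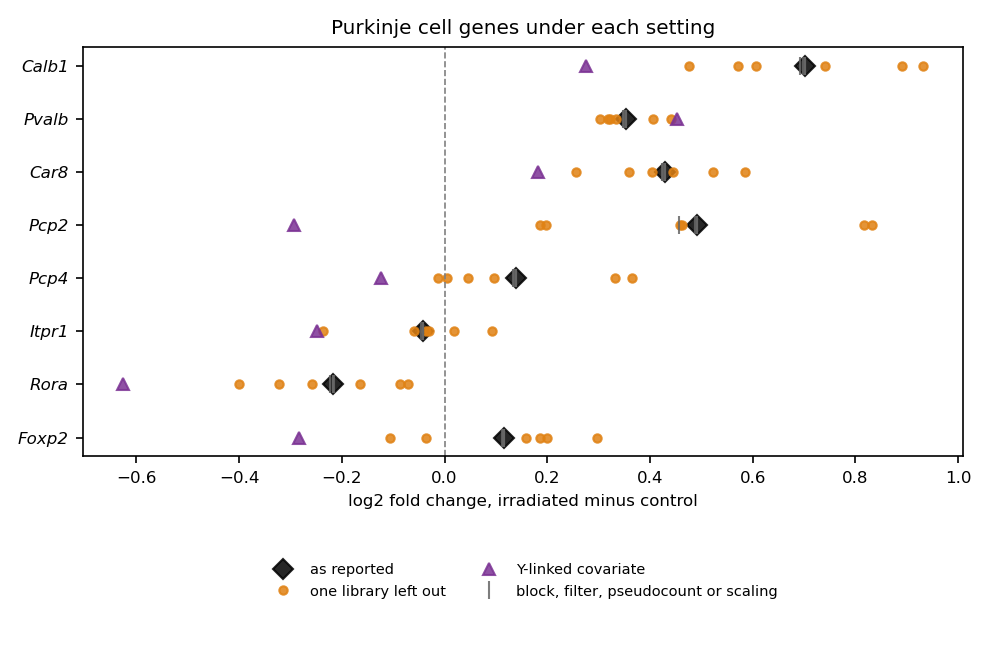
Log2 fold change, irradiated minus control, of the 8 Purkinje cell genes as reported (diamonds), with 1 library left out (circles), with the Y-linked level as a covariate (triangles) and with the block, other filters, pseudocount or scaling (bars). *Calb1*, *Pvalb* and *Car8* stay above 0 and *Rora* below 0 in all 12 alternatives, and none of the 8 passed in any. The block, in this balanced design, and the other filters, with each gene fitted on its own values, cannot move a fold change, only its p-value.

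**Figure D4:**
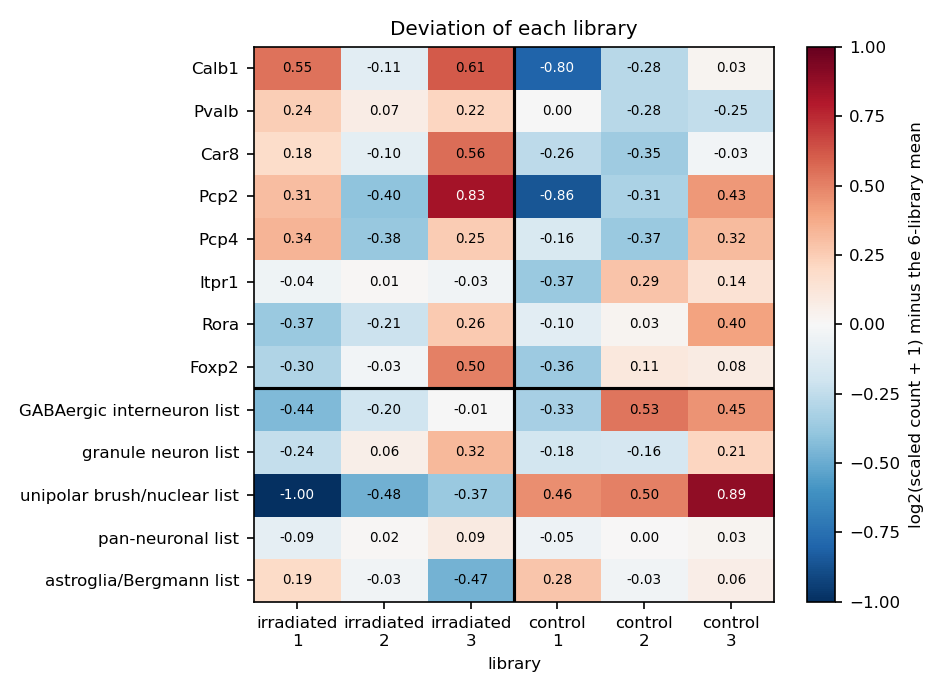
Deviation of each library from the mean of the 6 libraries, in log2(scaled count + 1), for the 8 Purkinje cell genes (above the line) and for the summed level of 5 marker lists (below it); irradiated libraries are left of the vertical line. *Pvalb* is at 0.072 to 0.243 in irradiated and at -0.279 to -0.004 in control libraries, and the unipolar brush and nuclear neuron list is below its mean in all 3 irradiated libraries.

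By pattern over the 6 libraries, the 5 genes most like *Calb1* among 13899 others with a mean of at least 50 were *Ercc6l*, *Ap3s1-ps1*, *Ptar1*, *Bcap29* and *Fignl1*. Their likeness, Pearson's correlation of log2 levels over 6 libraries, was 0.98, 0.97, 0.97, 0.97 and 0.96. None of the 5 belongs to a Purkinje cell list, and *Ap3s1-ps1* is a pseudogene whose reads may come from its parent gene. *Pcp2* ranked 38 by this measure and *Car8* ranked 81, while *Itpr1* ranked 3980 and *Rora* 6037. The 5 were chosen by this value, so it carries no test.

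Another 32 Purkinje cell genes were read from 3 lists, of which 30 passed the filter, and 0 were called by limma or with the block. At an unadjusted limma p below 0.05 there were 4 of the 30, 2 higher and 2 lower, beside 4.50% of all genes, 2.42% higher and 2.08% lower. Their median log2 fold change was 0.03, with 16 fitted higher and 14 lower, where 49.4% of all genes were fitted higher. Leaving out 1 library moved that median between -0.041 and 0.10. The groups did not overlap for 3 higher and 1 lower, where 4.83% of tested genes were higher and 4.01% lower without overlap.

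Development was covered by 11 genes of transcription factors, of the reelin pathway that places Purkinje cells, and *Shh*. Of the 10 tested, 4 were fitted higher and 6 lower, with a median of -0.085. The 3 with the highest level were the reelin receptor genes *Vldlr* and *Lrp8* and the adaptor gene *Dab1*. *Vldlr* averaged 5935 ± 1198 in irradiated and 6910.1 ± 539 in control libraries, *Dab1* 3794 ± 801 in irradiated and 4315 ± 363 in control libraries, and *Lrp8* 3468 ± 348 in irradiated and 3757 ± 623 in control libraries. Their log2 fold changes were -0.24 for *Vldlr*, -0.21 for *Dab1* and -0.11 for *Lrp8*. Without irradiated replicate 3 they were -0.064 for *Vldlr* and -0.028 for *Dab1*, without irradiated replicate 1 -0.36 for *Vldlr* and -0.34 for *Dab1*. That of *Lrp8* ran from -0.25 without control replicate 1 to -0.018 without control replicate 2. *Vldlr* and *Dab1* were highest in control replicate 1 and lowest in irradiated replicate 3. So were *Slc1a3* and *Fabp7*, but no other of the 11 astroglial and Bergmann glia markers. *Plcb3*, of the calcium signalling list below, had the same highest and lowest library. *Lrp8* did not, and whether astroglia contribute to these levels was not tested. *Skor2*, a corepressor gene largely restricted to young Purkinje cells, was scarce, at 37.5, 21.8 and 20.2 scaled counts in irradiated libraries and 12.6, 8.86 and 16.3 in control libraries. The groups did not overlap, at a log2 fold change of 0.9999 (SE 0.38) and a limma adjusted p of 0.978. From 77 reads in irradiated and 40 in control libraries, its scaled ratio had a 95% Clopper-Pearson counting interval of 1.39 to 3.11. That interval pools the reads of each group and covers counting error only, not the spread between libraries. *Shh* had 22 reads over the irradiated and 17 over the control libraries and fell below the filter. *Lhx5*, a LIM homeobox gene of Purkinje cells and interneuron precursors, stood at 925, 1132 and 1065 in irradiated libraries and 1113, 1786 and 1494 in control libraries, lower in each pair (log2 fold change -0.47, SE 0.18, limma adjusted p = 0.971). *Skor2* and *Lhx5* were singled out after their values were seen, as were *Grid2ip* and *Slc1a6* below.

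The 13 genes of calcium signalling had 6 fitted higher and 7 lower, with a median of -0.06. The highest were the calcium pump gene *Atp2a2*, at 16833 ± 1528 in irradiated and 16120.1 ± 1024 in control libraries, and the G protein gene *Gnaq*, at 5035 ± 353 in irradiated and 4717 ± 198 in control libraries. The phospholipase gene *Plcb3* followed at 2596 ± 490.0 in irradiated and 2966 ± 496 in control libraries.

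The 8 remaining genes cover the parallel fibre synapse, transport and channels, 7 of them tested, 6 fitted higher and 1 lower, with a median of 0.27. *Grid2ip*, whose product delphilin is a scaffold protein of the parallel fibre synapse, had 309, 459.9 and 533 scaled counts in irradiated libraries and 194, 222 and 278 in control libraries. Its groups did not overlap, and its log2 fold change of 0.88 (SE 0.23) had the lowest adjusted p of the tested Purkinje cell genes, 0.525 in limma and 0.10004 with the block. With the Y-linked covariate its log2 fold change was 0.45. *Slc1a6*, the Purkinje cell glutamate transporter gene, had 192, 192 and 249.96 scaled counts in irradiated libraries and 186, 144 and 181 in control libraries, without overlap and with a limma adjusted p of 0.9999.

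**Figure D5:**
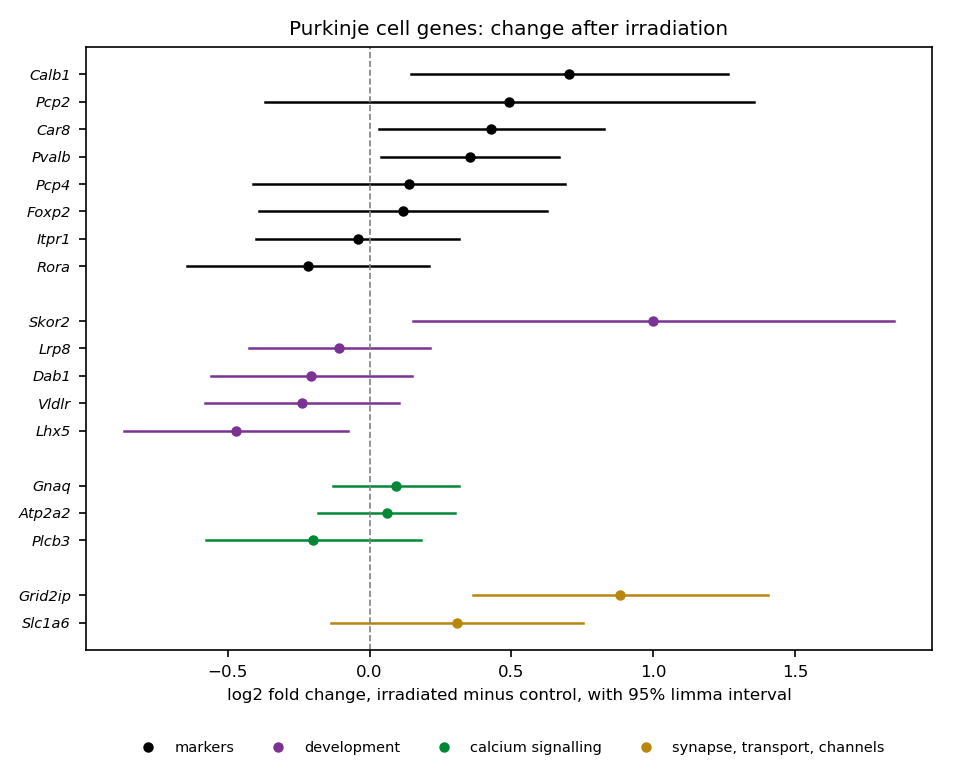
Log2 fold change, irradiated minus control, with its 95% limma interval for the 8 Purkinje cell markers and the 10 genes of the 3 other Purkinje cell lists given by name, 4 of which were singled out after their values were seen. *Grid2ip* (0.88) and *Skor2* (0.9999) lie farthest to the right among the genes drawn and *Lhx5* (-0.47) farthest to the left; none passed over all genes tested.

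Other neurons share some of these genes, so their markers are given beside them. The 8 GABAergic interneuron markers, led by *Tfap2b* and *Ptf1a*, were all fitted lower, with a summed level of 6626 to 8985 in irradiated and 7164 to 13038 in control libraries. None was called by limma, and *Pax2* was called lower with the block (limma adjusted p = 0.0442, 0.237 without it). Among them *Gad1*, which makes the transmitter of Purkinje cells and interneurons alike, had 304, 282 and 409 scaled counts in irradiated libraries and 327, 494 and 585 in control libraries. The 6 unipolar brush and nuclear neuron markers, led by *Eomes* and *Slc17a6*, summed to 457 to 704 in irradiated and 1256 to 1691 in control libraries, without overlap. Of the 6, 5 were fitted lower and 1, *Lhx2*, higher. Singly, 4 of them were lower without overlap, beside 4.01% of all genes tested. *Slc17a6* was called lower with the block (limma adjusted p = 0.0246, 0.183 without it). The 11 pan-neuronal markers, led by *Map2* and *Dcx*, summed to 44945 to 50994 in irradiated and 46353 to 48850 in control libraries. Of these 11, 10 were fitted higher and 1 lower, with a median log2 fold change of 0.090, where 49.4% of all genes were fitted higher. Singly, 1 was higher and 1 lower without overlap, beside 4.83% and 4.01% of all genes tested. In the granule neuron list 9 of 10 markers were in the table, led by *Pax6* and *Cntn2*, and summed to 18044 to 26655 in irradiated and 18801 to 24736 in control libraries. Of these 9, 6 were fitted higher and 3 lower, with a median of 0.031. The 11 astroglial and Bergmann glia markers, led by *Slc1a3* and *Fabp7*, summed to 367899 to 581701 in irradiated and 498034 to 618354 in control libraries. Outside the neural lists, 8 endothelial and pericyte markers led by *Rgs5* and *Cldn5* summed to 3379 to 4907 in irradiated and 4997 to 5493 in control libraries, without overlap. Choroid plexus and ependymal markers, 4 led by *Foxj1* and *Ttr*, summed to 1549, 1693 and 3996 in irradiated and to 762 to 1285 in control libraries, also without overlap. The sum of 3996 is irradiated replicate 3, where *Ttr* alone gave 2658, and the other 2 irradiated libraries still lay above all 3 controls. The 4 markers did not agree there, and 2 of them, *Foxj1* included, were higher without overlap. In irradiated replicates 1 and 2 *Ttr* was at 79.2 and 39.4, within the control range of 13.7 to 190.0. *Folr1* was at 9.38 and 10.4 in these 2 libraries, below the controls at 12.6 to 18.7. Erythroid markers, 4 of 5 in the table and led by *Hbb-bs* and *Hba-a1*, summed to 317 to 390.5 in irradiated and 484 to 839.5 in control libraries, without overlap. The groups overlapped for 8 oligodendrocyte lineage markers led by *Pdgfra* and *Olig1*, at 24980 to 42017 in irradiated and 24265 to 37292 in control libraries. They also overlapped for 7 microglial markers led by *Csf1r* and *Cx3cr1*, at 1968 to 3287 in irradiated and 1318 to 3334 in control libraries. The 8 dissociation stress genes, led by *Egr1* and *Fos*, summed to 41809 to 47539 in irradiated and 23174 to 41587 in control libraries, narrowly without overlap. Of the 8, 5 were fitted higher and 3 lower. *Egr1* and *Fos* each overlapped between groups, and 2 others were higher without overlap. Of single genes tested, 8.83% had no overlap in either direction, and no such share was taken for sums. No marker of these lists was at 0 in any library, and their part in the Purkinje cell values was not tested.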

How the data were processed

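RNA-seq was read from poly(A)-selected libraries made from 100 ng of RNA of sorted cells, per the labels' protocols. The authors deposited a signal per gene and library, a read count divided by a size factor with 1 added, per the file headers. HTSeq, DESeq and the build mm10 are named in the submitters' processing notes, while the sources used here do not give the counting settings or annotation release. The added 1 was taken off. Dividing by the value of 1 read, fitted from the low values of each library, gave whole reads within 0.001 for all values, which were used for depth (30986269 to 37067530 reads) and counting intervals and in no test.

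limma 3.58.1 in R 4.3.3, with a trend, was run on log2(scaled count + 1) for the 16674 genes with a mean of at least 10, two-sided, with Benjamini-Hochberg adjustment and a threshold of 0.05. It was tried on simulated counts with the same dispersion for all genes and no effect shared by same-numbered libraries. That trial does not cover such effects. Same-numbered libraries deviated together (correlations 0.305, 0.151 and 0.451, against -0.342 to 0.0503 for other pairs), so samples were treated as paired by number, on the data and not on the labels. Levels were centred within each group first, so a positive value for 1 pair forces a negative one elsewhere. The contrast between the pairs was not tested. Alternatives were the replicate block, 2 other filters, a pseudocount of 10, upper-quartile scaling, a Y-linked covariate and each library left out. Lengths and gene coordinates came from GENCODE M21, which may not be the release the authors used. Named were all 8 members, the 3 highest genes of each other Purkinje cell list, the 2 highest and any called gene of each other marker list, and the 5 genes most like *Calb1*. Members and lists were chosen with earlier results of these data known. Some genes that the rule would name are counted in their lists and not reported here.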

Additional observations from a re-analysis of the deposited data

How the results depend on the processing

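In all 12 alternatives run, 0 of the 8 Purkinje cell genes and 0 of the other Purkinje cell genes were called. Over all genes 9 were called, 25 with the replicate block, 28 with the Y-linked covariate and 1 to 29 with 1 library left out (29 without irradiated replicate 1, 1 without control replicate 2). The pairing by replicate number changed no Purkinje cell call. Of 215 log2 fold changes of 18 named genes under the alternatives, 203 kept their direction. Every replicate number is in both groups, so the block cannot alter a fold change. The 2 other filters cannot either, because each gene is fitted on its own values. Values under the block and these filters are among the 203 by construction and say nothing on direction. With the Y-linked covariate *Pcp2* turned to -0.29, *Pcp4* to -0.12, *Foxp2* to -0.28, *Vldlr* to 0.027, *Dab1* to 0.075 and *Plcb3* to 0.083. With 1 library left out, *Pcp4* ran from -0.012 to 0.36, *Itpr1* from -0.24 to 0.092, *Foxp2* from -0.11 to 0.30, and *Atp2a2* from -0.013 (without irradiated replicate 2) to 0.107. *Itpr1* was 0.019 without control replicate 3 and *Foxp2* -0.036 without control replicate 1. The cause of these turns was not tested. The 3 planned count tests on reads recovered from the scaled values were not run. With 3 libraries a group, the interval of *Pcp2* spans -0.37 to 1.35, and *Shh*, at 22 reads in irradiated and 17 in control libraries, was too scarce to compare.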
